A study of Mus musculus with 12 samples.

Results

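The axonemal dyneins and the factors that assemble and anchor them were followed through 36 mouse genes: 15 heavy chains, 5 intermediate and light chains, 10 assembly factors, 4 outer arm docking genes and the 2 ruler genes Ccdc39 and Ccdc40. They were chosen by symbol, under the name each table used, and all 36 had an entry among the 51826 of the sperm count table and the 23502 of the testis count table. The mice were C57BL/6J. RNA-seq was done on sperm released from the cauda epididymis of P56 males, 3 WT and 3 Xap5l KO libraries, and on whole testes of P16 males, 3 WT and 3 Xap5 cKO libraries. Xap5l (Fam50b in the tables) was deleted in the whole animal with CRISPR/Cas9. Xap5 (Fam50a) was deleted in male germ cells only, by Stra8-GFPCre acting on a floxed Xap5 allele, and the study names Xap5 fl/Y males as its cKO controls while the labels say only WT. The question of the study was how each of the paired proteins affects the genes of the sperm flagellum.

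Axonemal dyneins are the motors that bend cilia and flagella. Outer and inner arms, each built on large heavy chains with intermediate and light chains, sit in rows on the doublet microtubules and walk along the neighbouring doublet. The arms are put together in the cytoplasm by assembly factors before they travel into the axoneme. There a docking complex anchors the outer arms, and the Ccdc39 and Ccdc40 coiled coils set the repeat of the inner arms. Different cells use different outer arm heavy chains: Dnah8 and Dnah17 are those of the sperm flagellum, and Dnah5, Dnah9 and Dnah11 are those of airway and other motile cilia. Male germ cells begin to transcribe axonemal genes during meiosis and continue in round spermatids, while sperm of the epididymis make little or no new RNA and carry transcripts left from earlier stages. A testis at P16 holds the first wave of germ cells, which has reached pachytene.

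The promoters of 30 of the 36 genes were found in RefSeq windows of GRCm38.p6, each covering 250 bases before to 50 bases after the annotated start. They were searched on both strands for 2 motifs, the X-box motif GTTGCC, a part of the sites that RFX ciliary transcription factors bind, and the GC box GGGCGGGG, bound by Sp and Klf factors. The study reports the same GC box sequence as common to the motifs of its Xap5 and Xap5l binding peaks in testicular germ cells. The X-box motif and the GC box share no match, since neither string holds the other. Only exact matches were counted. The X-box motif lay in 11 of the 30 windows (36.7%) and in 12.5% of 32851 promoter windows of all genes. The GC box lay in 4 of the 30 (13.3%) and in 17.6% of all windows, and no member had both, against 2.19% of all windows. The 10 windows below are those whose match lies within 120 bases before and 30 bases after the start, the stretch printed, so that the match can be seen beside the expression results. They read 5′ to 3′ on the gene's strand, with the match in capitals. The first 7 hold an X-box motif and the last 3 a GC box.
Dnah10, chr5:124724965-124725114, + strand: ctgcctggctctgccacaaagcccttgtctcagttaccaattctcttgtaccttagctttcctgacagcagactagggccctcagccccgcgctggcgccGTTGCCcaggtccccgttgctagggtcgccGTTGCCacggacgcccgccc
Pih1d3, chr1:31222719-31222868, + strand: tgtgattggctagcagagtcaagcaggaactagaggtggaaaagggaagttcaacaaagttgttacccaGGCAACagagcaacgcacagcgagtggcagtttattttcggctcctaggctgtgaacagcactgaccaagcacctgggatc
Dyx1c1, chr9:72958665-72958814, + strand: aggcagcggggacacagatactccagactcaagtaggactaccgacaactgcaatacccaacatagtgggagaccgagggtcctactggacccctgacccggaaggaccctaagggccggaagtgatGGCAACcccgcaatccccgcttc
Ccdc103, chr11:102881104-102881253, + strand: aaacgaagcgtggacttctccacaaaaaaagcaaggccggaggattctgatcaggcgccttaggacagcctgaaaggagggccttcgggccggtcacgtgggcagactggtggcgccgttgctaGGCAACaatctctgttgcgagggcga
Dnaaf2, chr12:69198400-69198549, − strand: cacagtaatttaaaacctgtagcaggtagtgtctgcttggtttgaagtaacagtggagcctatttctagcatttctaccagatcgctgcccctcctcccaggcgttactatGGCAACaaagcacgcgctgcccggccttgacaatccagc
Dnaaf5, chr5:139150115-139150264, + strand: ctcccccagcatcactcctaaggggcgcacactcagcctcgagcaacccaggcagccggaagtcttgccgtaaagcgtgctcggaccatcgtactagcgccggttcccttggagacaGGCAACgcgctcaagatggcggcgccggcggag
Dnaic2, chr11:114727299-114727448, + strand: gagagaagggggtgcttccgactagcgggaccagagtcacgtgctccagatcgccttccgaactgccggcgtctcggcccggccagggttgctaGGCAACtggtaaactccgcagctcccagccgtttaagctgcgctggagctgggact
Dnali1, chr4:125065628-125065777, − strand: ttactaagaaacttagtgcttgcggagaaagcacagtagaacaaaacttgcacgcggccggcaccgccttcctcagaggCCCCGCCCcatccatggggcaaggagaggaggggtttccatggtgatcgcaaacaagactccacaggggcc
Ccdc151, chr9:22002605-22002754, − strand: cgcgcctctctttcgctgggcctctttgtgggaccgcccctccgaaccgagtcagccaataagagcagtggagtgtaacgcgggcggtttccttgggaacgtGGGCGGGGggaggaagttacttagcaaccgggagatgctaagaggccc
Dnah9, chr11:66168522-66168671, − strand: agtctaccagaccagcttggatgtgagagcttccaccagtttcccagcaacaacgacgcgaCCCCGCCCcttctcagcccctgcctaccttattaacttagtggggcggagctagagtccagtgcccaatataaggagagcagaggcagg

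The libraries held 32251198 to 52308452 counts. The 36 genes together took 0.0647 to 0.0684% of the counts in WT sperm and 0.104 to 0.172% in Xap5l KO sperm, and 0.113 to 0.199% in WT testes and 0.0331 to 0.0366% in Xap5 cKO testes. Xap5l itself had 574, 440 and 419 counts in WT sperm against 18, 23 and 8 in Xap5l KO sperm. Xap5 in the testes, where cells outside the Cre lineage still carry the gene, had 819, 811 and 988 counts in WT against 673, 616 and 651 in Xap5 cKO. A pair of libraries stood apart in these genes. WT testis replicate 3 was the lowest of the WT testes for 31 of the 36 members, with a median of 56.2% of the mean of the other WT testes, and Xap5l KO sperm replicate 2 was the highest of all 6 sperm libraries for 20 members. Of the 8 marker genes of multiciliated cells, Gmnc and Tmem212 were at 0 counts in all WT sperm libraries. Others were present there, with 310, 525 and 744 counts for Ccno and 11, 33 and 21 for Mcidas. Gmnc had 4, 5 and 0 counts in Xap5l KO sperm. In sperm 4 of the 8 could be tested, and none was called (none at an unadjusted p under 0.05). Their summed level of 213 to 424 CPM in WT and 245 to 510 CPM in Xap5l KO came mostly from Deup1. Of the 8 elongating spermatid markers, Prm2 and Smcp alone were at 0 in all WT testes. The 8 together summed to 5.003 to 6.074 CPM in WT testes and 4.814 to 6.155 CPM in Xap5 cKO testes. In the testes 2 of the 8 could be tested, and neither was called.

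In sperm, loss of Xap5l went with higher axonemal dynein RNA. Of the 36 members, all of them tested, 13 were upregulated (adjusted p under 0.05 in edgeR's quasi-likelihood test and a fold change above 2), against 7.59% of the 20945 genes tested. None was downregulated, as against 1.27% of all genes, and none was lower than WT by over 2-fold at an unadjusted p under 0.05 or in DESeq2. The fitted log2 fold change was above 0 for 35 members, compared with 45.7% of all genes, and 17 members were higher at an adjusted p under 0.05, against 9.02%. The median of the members was 0.89 and that of all tested genes −0.08. In 21 members every Xap5l KO library was higher than every WT library in CPM (counts normalised for library size), and 19.2% of all genes showed that separation. The upregulated genes came from every role, with 5 of the 15 heavy chains, 2 of the 5 intermediate and light chains, 2 of the 10 assembly factors, 3 of the 4 docking genes and 1 of the 2 ruler genes.

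**Figure D1:**
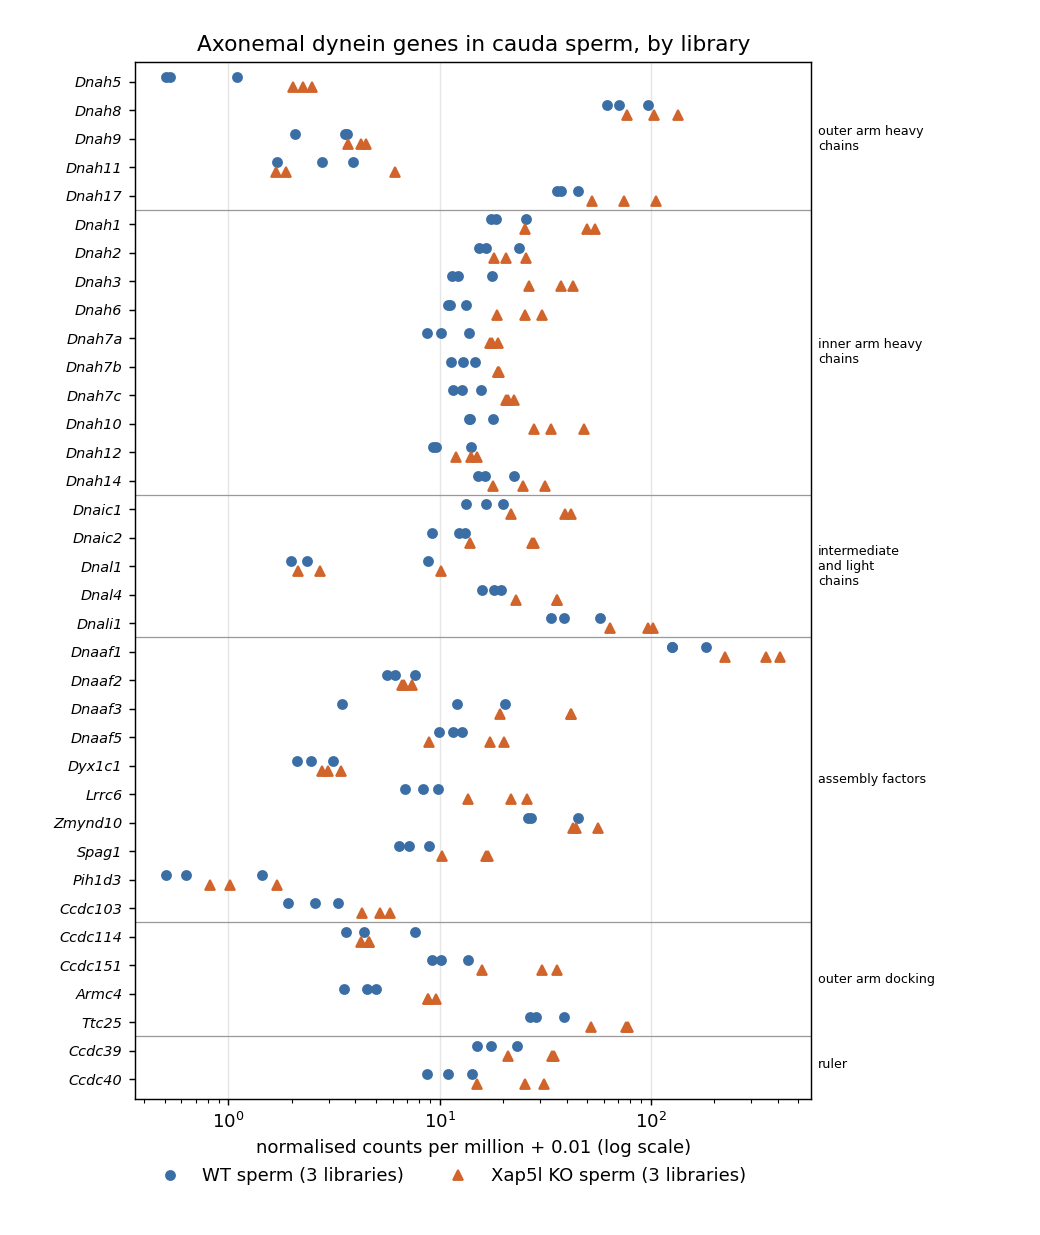
Normalised CPM + 0.01 on a log axis for each of the 36 members (rows, grouped by role) in the 3 WT sperm libraries (circles) and the 3 Xap5l KO sperm libraries (triangles), 1 point per library. The triangles lie right of all circles in 21 rows, and Dnal1 has 1 high point in each genotype.

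These calls lay close to the threshold, since the lowest adjusted p among the members was 0.0164. With replicate 2 or 3 of WT or replicate 2 of Xap5l KO left out, no member was called, 11, 11 and 9 members had an unadjusted p under 0.05 with a fold change above 2, and only 1 gene of the whole table was upregulated in each case. Without Xap5l KO replicate 1 the count was 2, and without WT replicate 1 or Xap5l KO replicate 3 it was 16 and 18. The median log2 fold change moved less, between 0.74 and 1.04 over these 6 omissions, and DESeq2 on all libraries called 18 members.

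**Figure D2:**
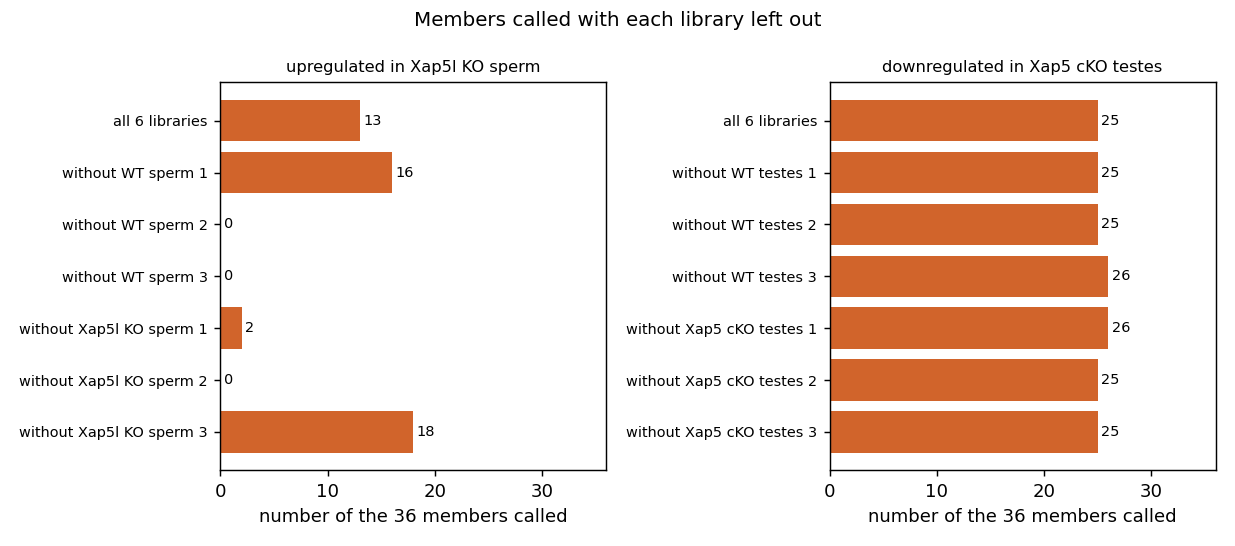
Number of the 36 members called (horizontal axis) with all 6 libraries and with each library left out in turn, for upregulation in Xap5l KO sperm (left) and downregulation in Xap5 cKO testes (right). The sperm count runs from 0 to 18 and the testis count from 25 to 26.

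Markers of round spermatids moved with the sperm result, and those of pachytene cells did so in part. Round spermatid markers were upregulated in 7 of 8 genes. Their summed level was 120 to 172 CPM in WT and 262 to 458 CPM in Xap5l KO. Pachytene markers were upregulated in 4 of 8, with sums of 1351 to 2267 CPM and 2666 to 3329 CPM. Of these 8, 6 had a fitted log2 fold change above 0 and 2 below, with Piwil1 at −0.97 (adjusted p = 0.104). Pgk2 was the largest part of the sums, at 801 to 1441 CPM in WT and 1030 to 1953 CPM in Xap5l KO. It was not called (adjusted p = 0.415). Of earlier germ cells, none of the 5 tested spermatogonial markers was called, with 1 at an unadjusted p under 0.05, a median log2 fold change of −0.25 and sums of 23.0 to 24.8 CPM in WT and 22.5 to 26.1 CPM in Xap5l KO. None of the 7 tested leptotene and zygotene markers was called or had an unadjusted p under 0.05, with a median of −0.08 and sums of 16.6 to 25.6 CPM and 20.3 to 27.0 CPM. None of the 8 elongating spermatid markers was called, with 1 of 8 at an unadjusted p under 0.05. Leukocyte markers summed to 836 to 965 CPM in WT and 203 to 555 CPM in Xap5l KO, with 2 of 8 downregulated, and epididymal markers to 6608 to 9005 CPM and 4705 to 6723 CPM, with none called and 3 of 8 at an unadjusted p under 0.05. Their part in the dynein result was not tested. In bulk RNA of this kind, more cells of a type and more RNA per cell cannot be told apart.

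Among the outer arm heavy chains, the sperm chains Dnah8 and Dnah17 made up most of the level per kb of the longest transcript. Dnah8 had 3216, 2977 and 2867 counts in WT against 3616, 7449 and 4508 in Xap5l KO, and its difference did not pass the test (log2 fold change 0.45 ± 0.27, SE, adjusted p = 0.258). Dnah17 had 1494, 1589 and 1671 counts in WT against 2626, 5848 and 3061 in Xap5l KO. All Xap5l KO libraries lay above WT, and Dnah17 passed the test at 1.96-fold (adjusted p = 0.0463), just under the limit for a call. Dnah5, which pairs with Dnah9 or Dnah11 in motile cilia, was the one upregulated chain of this class and had the largest fold change of all 36 members. It had 36, 21 and 24 counts in WT against 79, 112 and 144 in Xap5l KO, 3.23-fold higher (log2 fold change 1.69 ± 0.38, adjusted p = 0.0241). At 0.045 CPM per kb in WT and 0.144 in Xap5l KO its level remained far under that of Dnah8, with 6.30 in Xap5l KO. Dnah9 and Dnah11 did not pass the test (adjusted p = 0.308 and 0.772), and Dnah11 was high in 1 Xap5l KO library alone, with 65, 93 and 358 counts.

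Of the inner arm heavy chains, 4 of 10 were upregulated. Dnah3, a single-headed inner arm chain, had the lowest adjusted p of all members, with 583, 483 and 564 counts in WT against 1323, 2368 and 1552 in Xap5l KO (2.59-fold, adjusted p = 0.0164). Its exons overlap those of Lyrm1, on the opposite strand, over 1506 bases, and reads of both could be counted together. Dnah10, the partner of Dnah2 in the double-headed inner arm, had 589, 577 and 645 counts in WT against 1181, 2666 and 1639 in Xap5l KO (2.42-fold, adjusted p = 0.0177). Dnah2 itself had 780, 695 and 715 counts in WT against 724, 1422 and 1060 in Xap5l KO (log2 fold change 0.22 ± 0.24, adjusted p = 0.538). The subunits of one arm thus had unequal fitted fold changes, and the difference between them was not tested.

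Dnah6, another single-headed chain, had 439, 473 and 508 counts in WT against 890, 1694 and 1092 in Xap5l KO (log2 fold change 1.07 ± 0.23, adjusted p = 0.0218). Dnah1, the inner arm chain of highest level per kb in WT sperm at 1.60 CPM per kb, had 848, 737 and 856 counts in WT against 1744, 3013 and 1473 in Xap5l KO (log2 fold change 1.07 ± 0.30, adjusted p = 0.0483). It was called although the groups overlapped after normalisation, with Xap5l KO replicate 3 just under WT replicate 1. Dnah7a, Dnah7b and Dnah7c, near-identical copies between which reads can be split, were higher in every Xap5l KO library, with log2 fold changes of 0.73, 0.55 and 0.69 that did not pass the test (adjusted p = 0.0573, 0.0825 and 0.0507). Dnah12 and Dnah14 had 0.31 and 0.46, with overlapping groups.

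Dnali1, an inner arm light intermediate chain, and Dnaic1, an outer arm intermediate chain, were the upregulated members of the smaller chains. Dnali1 had 1888, 1415 and 1794 counts in WT against 3600, 5379 and 3722 in Xap5l KO (2.04-fold, adjusted p = 0.0419), and at 20.3 CPM per kb it was the highest of its class in WT. Dnaic1 had 655, 564 and 771 counts in WT against 1467, 2185 and 1273 in Xap5l KO (2.07-fold, adjusted p = 0.041). Neither gene overlapped between the genotypes. Dnaic2, the other intermediate chain of the outer arm, was 1.99-fold higher with an adjusted p of 0.0524, and the light chain Dnal4 passed the test at 1.77-fold (adjusted p = 0.0455). The light chain Dnal1 had 65, 99 and 407 counts in WT against 95, 118 and 593 in Xap5l KO. It was high in replicate 3 of both genotypes, and the groups overlapped.

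Dnaaf1, an assembly factor of outer and inner arms, had the highest level of the 36 genes in sperm, at 51.4 CPM per kb in WT and 117 in Xap5l KO. It had 6022, 5324 and 5826 counts in WT against 12373, 22797 and 13137 in Xap5l KO, 2.28-fold higher (log2 fold change 1.19 ± 0.29, adjusted p = 0.0325). The gene, at chr8:119575235-119598454 on the + strand of GRCm38, shares 584 exonic bases with Taf1c on the other strand. Lrrc6, now called Dnaaf11, was the other upregulated factor, with 323, 350 and 319 counts in WT against 763, 1432 and 794 in Xap5l KO (2.45-fold, adjusted p = 0.0203). Lrrc6 did not overlap between genotypes.

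Dnaaf3 had the largest fitted change of the assembly factors and was not called, with a wide spread among its libraries. It had 672, 509 and 160 counts in WT against 1473, 2316 and 1121 in Xap5l KO (log2 fold change 1.52 ± 0.54, adjusted p = 0.0849). The low WT replicate 3 lay apart from the other WT libraries, and Xap5l KO replicate 3 fell under WT replicate 1 after normalisation. Spag1 and Ccdc103, a tetratricopeptide chaperone partner and a coiled-coil factor, passed the test at 1.95-fold and 1.97-fold (adjusted p = 0.0389 and 0.0484). The other 5 factors did not pass, with log2 fold changes from 0.10 for Dnaaf2 to 0.54 for Zmynd10.

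Of the docking genes, Ccdc151, Armc4 and Ttc25 (now Odad3, Odad2 and Odad4) were upregulated and Ccdc114 (now Odad1) was not. Ccdc151 had 448, 386 and 470 counts in WT against 1067, 2000 and 924 in Xap5l KO (2.51-fold, adjusted p = 0.0286). Ttc25, the docking gene of highest level per kb in WT sperm, had 1281, 1203 and 1249 counts in WT against 2689, 4329 and 3052 in Xap5l KO (2.20-fold, adjusted p = 0.0217). Armc4 had 165, 191 and 163 counts in WT against 310, 531 and 514 in Xap5l KO (2.09-fold, adjusted p = 0.0197). In these 3 genes all Xap5l KO libraries were above all WT libraries. Ccdc114 was the one member with a fitted log2 fold change below 0, at −0.21 ± 0.30 (adjusted p = 0.64), and had 253, 152 and 202 counts in WT against 148, 255 and 271 in Xap5l KO. Of the ruler genes, Ccdc40 had 469, 461 and 404 counts in WT against 886, 1731 and 872 in Xap5l KO (2.11-fold, adjusted p = 0.0456), and Ccdc39 had 771, 741 and 699 and 1225, 1894 and 1231 (1.61-fold, adjusted p = 0.101), with overlapping groups.

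In the testes, loss of Xap5 from germ cells went with lower axonemal dynein RNA. Of the 35 members tested, 25 were downregulated, against 10.9% of the 16821 genes tested, and 30 were lower at an adjusted p under 0.05, against 28.1%. None was upregulated, as against 4.15% of all genes, also at an unadjusted p under 0.05 with a fold change above 2 and in DESeq2. The median log2 fold change of the tested members was −3.20 and that of all tested genes −0.01. Dnah5 did not pass the filter on low counts (9, 19 and 5 counts in WT against 0, 0 and 12 in Xap5 cKO), and with no filter the median of all 36 was −3.16. In 31 members every Xap5 cKO library was lower than every WT library, a separation seen in 32.4% of all genes tested. The downregulated genes were 11 of the 14 tested heavy chains, 2 of the 5 smaller chains, 7 of the 10 assembly factors, 3 of the 4 docking genes and both ruler genes.

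**Figure D3:**
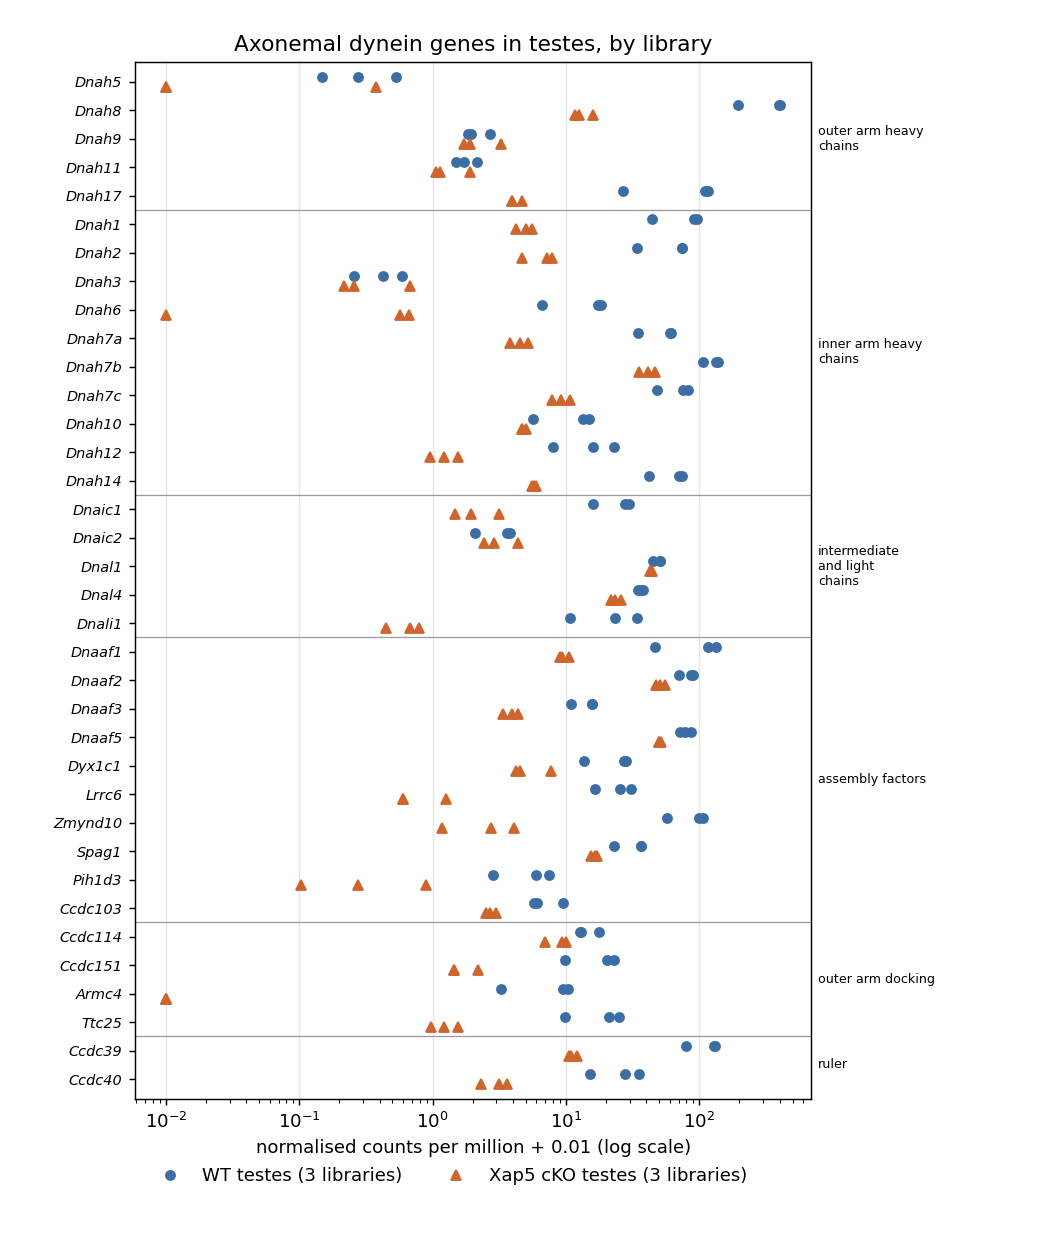
Normalised CPM + 0.01 on a log axis for each of the 36 members (rows, grouped by role) in the 3 WT testis libraries (circles) and the 3 Xap5 cKO testis libraries (triangles), 1 point per library. In 31 rows the triangles lie left of all circles, and points at 0.01 are libraries with 0 counts, such as Armc4 in all Xap5 cKO testes.

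The make-up of the testes differed as well. Pachytene markers summed to 998 to 2023 CPM in WT and 214 to 282 CPM in Xap5 cKO, with 7 of 8 downregulated and WT replicate 3 the lowest WT library. Leptotene and zygotene markers summed to 1752 to 2026 CPM and 822 to 1123 CPM, with 7 of 8 downregulated. Round spermatid markers summed to 28.4 to 79.1 CPM and 10.4 to 12.9 CPM, with 2 of 5 tested downregulated. Spermatogonial markers summed to 624 to 736 CPM and 451 to 490 CPM, with 2 of 8 downregulated. Sertoli cell markers summed to 1026 to 1139 CPM in WT and 1789 to 1874 CPM in Xap5 cKO, with 1 of 8 upregulated. Leydig cell markers summed to 193 to 336 CPM and 389 to 737 CPM, with 3 of 6 upregulated. Leukocyte markers summed to 77.9 to 113 CPM and 166 to 219 CPM, with 5 of 6 tested upregulated. None of the 6 peritubular myoid markers was called. The part of these shifts in the dynein result was not tested. With any one library left out, 25 or 26 members were downregulated, and without WT replicate 3 the median log2 fold change was −3.44.

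Dnah8 and Dnah17, the outer arm chains of the sperm flagellum, fell by the largest folds among the heavy chains of the outer arm. Dnah8 had 13629, 14516 and 6998 counts in WT against 376, 426 and 529 in Xap5 cKO, 24.8-fold lower (log2 fold change −4.63 ± 0.29, adjusted p = 1.11e-05). Dnah17 had 3932, 4011 and 955 counts in WT against 126, 133 and 154 in Xap5 cKO (20.3-fold lower, adjusted p = 0.000135), and its WT replicate 3 lay far under the other WT libraries. The motile cilia chains were low in WT and did not pass the test. Dnah9 had 61, 97 and 69 counts in WT against 55, 65 and 107 in Xap5 cKO (log2 fold change 0.10 ± 0.35, adjusted p = 0.827). Dnah11 had 72, 54 and 62 counts in WT against 61, 36 and 37 in Xap5 cKO (log2 fold change −0.39 ± 0.38, adjusted p = 0.411). On the opposite strand, Dnah9 shares 495 exonic bases with Gm12296 and Dnah11 shares 642 with Cdca7l. Reads of these neighbours could be part of the low counts.

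The make-up of the outer arm heavy chain RNA therefore differed between the testes. Dnah5, Dnah9 and Dnah11 together held 0.928, 1.05 and 1.97% of the summed level per kb of the 5 chains in WT testes against 21.2, 17.4 and 21.0% in Xap5 cKO testes, a mean of 1.32% ± 0.57 (SD, n = 3) against 19.9% ± 2.11. The groups did not overlap, and the exact two-sided permutation test gave p = 0.1, the smallest that 3 against 3 libraries allow. In sperm the same share was 5.29, 6.69 and 6.38% in WT and 4.63, 3.66 and 9.97% in Xap5l KO (exact permutation p = 1). Dnah17 held 32.3, 34.8 and 36.9% of the level in WT sperm against 42.7, 45.0 and 38.8% in Xap5l KO sperm, while Dnah8 held 62.4, 58.5 and 56.8% and 52.7, 51.4 and 51.3%. Dnah17 thus had the higher share, and Dnah8 the lower, in every Xap5l KO sperm library.

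**Figure D4:**
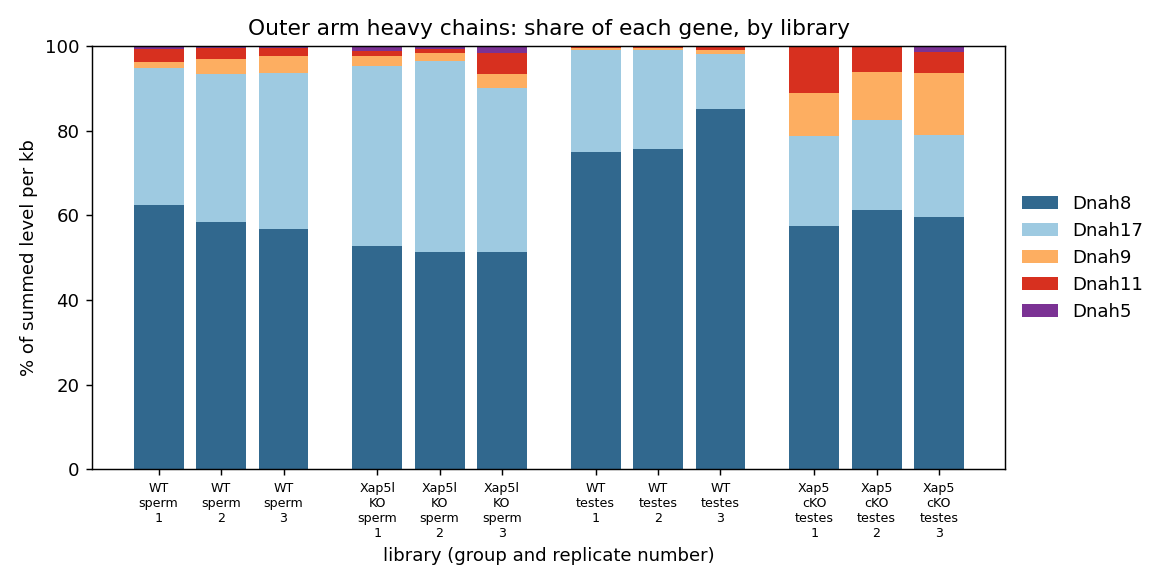
Share of each of the 5 outer arm heavy chains in their summed CPM per kb of the longest transcript (vertical axis, %), 1 bar for each of the 12 libraries. Dnah5, Dnah9 and Dnah11 hold 1.97% or less in WT testes and 17.4 to 21.2% in Xap5 cKO testes.

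Of the inner arm heavy chains, 9 of 10 were downregulated in the testes. Dnah6 had 616, 629 and 237 counts in WT against 21, 19 and 0 in Xap5 cKO, and its fold change was the largest of this class (34.5-fold lower, adjusted p = 0.000424). Dnah1 had 3233, 3297 and 1581 counts in WT against 135, 170 and 184 in Xap5 cKO (15.6-fold lower, adjusted p = 1.92e-05). Dnah12 had 764, 585 and 288 counts in WT against 39, 52 and 31 in Xap5 cKO (12.7-fold lower, adjusted p = 8.85e-05). A second entry, Dnah12-2, had 615, 536 and 237 counts in WT against 27, 41 and 35 in Xap5 cKO (12.7-fold lower, adjusted p = 8.45e-05). The Dnah12 counts given here may thus be only a part of the gene. With such entries summed, 25 members were downregulated. In all 3 genes the Xap5 cKO libraries stood well below WT replicate 3, the lowest WT library. Dnah14 had 2355, 2715 and 1508 counts in WT against 186, 189 and 197 in Xap5 cKO (10.8-fold lower, adjusted p = 1.12e-05).

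The partners Dnah2 and Dnah10 differed in size of change here too, and the larger fold was that of Dnah2, where in sperm it was that of Dnah10, though the difference between them was not tested. Dnah2 had 2492, 2678 and 1219 counts in WT against 151, 246 and 257 in Xap5 cKO (9.19-fold lower, adjusted p = 5.84e-05). Dnah10 had 498, 488 and 204 counts in WT against 149, 170 and 154 in Xap5 cKO (2.37-fold lower, adjusted p = 0.0109), with the Xap5 cKO libraries only a little under WT replicate 3. It was downregulated with any one library left out. Dnah3, upregulated in Xap5l KO sperm, was almost absent from the testes of either genotype, with 14, 9 and 21 counts in WT against 8, 7 and 22 in Xap5 cKO (adjusted p = 0.869).

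The Dnah7 copies fell to unequal extents. Dnah7b, the inner arm chain of highest level per kb in WT testes, had 4457, 5028 and 3800 counts in WT against 1317, 1202 and 1524 in Xap5 cKO (3.07-fold lower, adjusted p = 2.38e-05). Dnah7a had 2048, 2194 and 1239 counts in WT against 145, 130 and 171 in Xap5 cKO (11.5-fold lower, adjusted p = 1.42e-05). Dnah7c had 2762, 2749 and 1745 counts in WT against 252, 311 and 350 in Xap5 cKO (7.47-fold lower, adjusted p = 1.69e-05). All 3 were lower in every Xap5 cKO library, and since reads of such copies can be assigned to any of them, the values of each copy are uncertain.

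The smaller chains split. Dnali1 had 1136, 851 and 383 counts in WT against 25, 15 and 22 in Xap5 cKO, the largest fitted fold among members still detected in Xap5 cKO testes (35.8-fold lower, log2 fold change −5.16 ± 0.46, adjusted p = 3.64e-05). Dnaic1 had 1001, 1002 and 578 counts in WT against 62, 50 and 104 in Xap5 cKO (11.2-fold lower, adjusted p = 5.01e-05). Dnaic2, the partner of Dnaic1, had 128, 131 and 75 counts in WT against 93, 83 and 144 in Xap5 cKO (log2 fold change 0.03 ± 0.34, adjusted p = 0.944), with overlapping groups and a level per kb in WT of 1.10 CPM against 9.74 for Dnaic1. Dnal4, the chain of highest level per kb in this class in WT testes at 24.7 CPM per kb, had 1169, 1367 and 1324 counts in WT against 830, 741 and 770 in Xap5 cKO. Its fall passed the test at 1.54-fold (adjusted p = 0.000935). Dnal1 had 1507, 1849 and 1815 counts in WT against 1420, 1450 and 1440 in Xap5 cKO, and its log2 fold change of −0.16 ± 0.09 did not pass (adjusted p = 0.143).

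All 10 assembly factors were lower in Xap5 cKO testes at an adjusted p under 0.05, and 7 by more than 2-fold. Zmynd10, which hands dynein chains to the chaperones and had the highest level of its class in WT testes at 49.7 CPM per kb, had 3590, 3615 and 2051 counts in WT against 88, 40 and 134 in Xap5 cKO (33-fold lower, adjusted p = 2.31e-05). Lrrc6, which binds Zmynd10, had 1033, 926 and 596 counts in WT against 19, 20 and 41 in Xap5 cKO (29.9-fold lower, adjusted p = 1.78e-05). Both lost nearly all of their RNA in each Xap5 cKO library. Pih1d3, now Dnaaf6, had 251, 217 and 101 counts in WT against 3, 9 and 29 in Xap5 cKO (13-fold lower, adjusted p = 0.00145). A separate entry of like name, Dnaaf6b, had 61, 69 and 50 counts in WT against 37, 57 and 65 in Xap5 cKO. It did not pass the test (log2 fold change −0.09 ± 0.35, adjusted p = 0.853). Dnaaf1 had 4443, 4202 and 1669 counts in WT against 299, 309 and 349 in Xap5 cKO (10.1-fold lower, adjusted p = 7.07e-05).

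The remaining factors changed less. Dyx1c1, now Dnaaf4, had 944, 987 and 492 counts in WT against 144, 143 and 252 in Xap5 cKO (4.22-fold lower, adjusted p = 0.000644). Dyx1c1 shares 1170 exonic bases with Gm44503 on the same strand and 738 with Gm37710 on the other. Dnaaf3 had 526, 567 and 393 counts in WT against 127, 148 and 111 in Xap5 cKO (3.61-fold lower, adjusted p = 0.000117). Ccdc103 had 319, 219 and 208 counts in WT against 81, 92 and 98 in Xap5 cKO (2.59-fold lower, adjusted p = 0.00187). In each of these the genotypes were separate. Spag1, Dnaaf2 and Dnaaf5 fell by 1.98-fold, 1.61-fold and 1.56-fold (adjusted p = 0.00175, 0.000687 and 0.000349). Dnaaf2 and Dnaaf5 kept 51.1 ± 3.76 and 50.5 ± 1.22 CPM in Xap5 cKO testes (SD, n = 3), the highest levels per kb left among the assembly factors, at 15.1 and 14.6 CPM per kb.

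Armc4, a docking gene, was at 0 counts in all 3 Xap5 cKO testes and had 347, 343 and 116 counts in WT. Against a floor of 3 counts in each library it was at least 84.3-fold lower, and edgeR gave an adjusted p of 0.00012. Ttc25 had 842, 765 and 355 counts in WT against 31, 41 and 51 in Xap5 cKO (15-fold lower, adjusted p = 5.05e-05). Ccdc151, the docking gene of highest level per kb in WT testes, had 684, 841 and 354 counts in WT against 46, 49 and 72 in Xap5 cKO (10.5-fold lower, adjusted p = 7.19e-05). Ccdc114, which did not rise in sperm, fell least of the docking genes, with 593, 471 and 459 counts in WT against 223, 341 and 308 in Xap5 cKO (1.65-fold lower, adjusted p = 0.0158). The ruler genes fell to like degrees. Ccdc39 had 4340, 4751 and 2843 counts in WT against 386, 360 and 361 in Xap5 cKO (10.1-fold lower, adjusted p = 9.7e-06), the lowest adjusted p of the 35 members tested, and shares 1256 exonic bases with Ttc14 on the other strand. Ccdc40 had 1188, 1014 and 545 counts in WT against 100, 123 and 75 in Xap5 cKO (8.69-fold lower, adjusted p = 7.07e-05).

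Set side by side, 11 members were downregulated in Xap5 cKO testes and upregulated in Xap5l KO sperm, and these were Dnah1, Dnah6, Dnah10, Dnaic1, Dnali1, Dnaaf1, Lrrc6, Ccdc151, Armc4, Ttc25 and Ccdc40. Of the 13959 genes tested in both comparisons, 2.69% had this pair of calls. The comparisons share no library, but they differ in tissue, age and deleted gene. Another 14 were downregulated in the testes and not called in sperm, among them Dnah8, Dnah17 and Zmynd10. Dnah3 was upregulated in sperm and not called in the testes, and Dnah5 was upregulated in sperm and too low to test in the testes. The last 9 were called in neither. A fitted log2 fold change below 0 in the testes and above 0 in sperm was found in 32 of the 35 members tested in both, and in 25.5% of all genes tested in both. With the sperm libraries named above left out in turn, the count of 11 fell to 0 when replicate 2 or 3 of WT or replicate 2 of Xap5l KO was omitted and to 1 without Xap5l KO replicate 1, since it rests on the sperm calls.

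**Figure D5:**
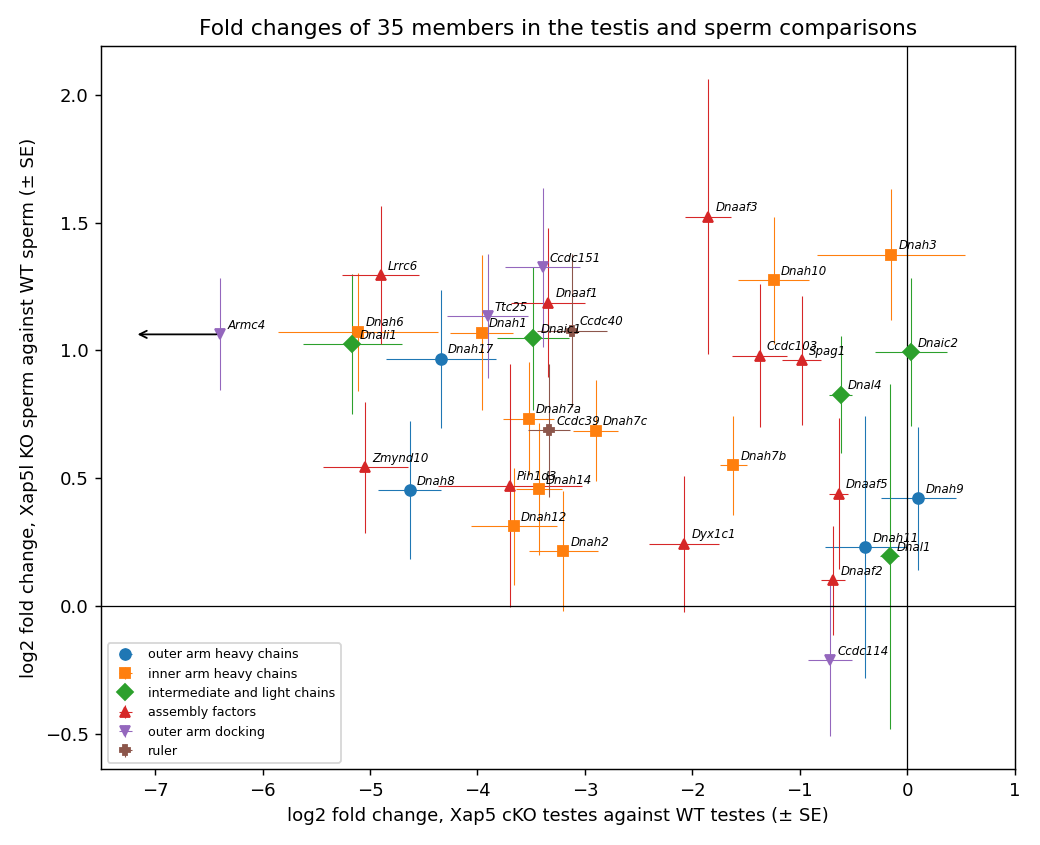
Log2 fold change ± SE of 35 members in Xap5 cKO testes (horizontal axis) and in Xap5l KO sperm (vertical axis), with 1 point per gene and a marker for each role, and Dnah5 left out as not tested in the testes. Armc4 is drawn with an arrow at its bound of −6.40, and 32 points lie left of and above the zero lines.

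The calls of the members were also counted by the motifs in their promoters. Of the 11 members with an exact X-box motif match, 8 were downregulated in Xap5 cKO testes and 1 (Dnah10) was upregulated in Xap5l KO sperm. The near-identical copies Dnah7a, Dnah7b and Dnah7c were among the 11. Of the 19 with a window and no exact match, 13 and 7 were. A near match, such as gttgctaagcaac in the Dnah6 window, was not counted, and an exact match is only a part of such a site. The split thus does not tell which members have or lack RFX sites. Dnah3, Dnaaf1, Lrrc6, Spag1, Armc4 and Ttc25 had no window and are left out, though all but Spag1 were upregulated in sperm. The windows of Dnaaf5 and Dnaic2 printed above hold the X-box motif near the start, and these genes were 1.56-fold lower and not called in the testes. Of the 4 members with a GC box, Dnali1 and Ccdc151 were called in both comparisons and Dnah9 and Ccdc114 in neither. No test was made of these counts.

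Genes beyond the 36 that work with the same machinery were counted from fixed lists. Of the other axonemal dynein chains and arm genes, 4 of 12 tested were upregulated in Xap5l KO sperm (Casc1, Tcte3, Dynlt1b and Ccdc63) and 6 of 11 tested were downregulated in Xap5 cKO testes (Wdr63, Wdr78, Casc1, Tcte3, Dnhd1 and Dynlrb2). Wdr63, an inner arm intermediate chain, had 933, 1052 and 489 counts in WT testes against 15, 0 and 11 in Xap5 cKO testes (adjusted p = 5.42e-05). The light chains Dynll1 and Dynll2, which many complexes share, passed in the testes under 2-fold, with log2 fold changes of −0.40 and 0.28. The nexin-dynein regulatory complex, which links the doublets and controls the arms, had 6 of 10 upregulated in sperm (Drc1, Ccdc65, Tcte1, Fbxl13, Iqcg and Iqca) and 7 of 9 tested downregulated in testes (Drc1, Ccdc65, Drc3, Tcte1, Drc7, Iqcg and Iqcd). Tcte1 was at 0 counts in all Xap5 cKO testes and had 403, 393 and 150 in WT testes.

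Further assembly and trafficking factors had 2 of 10 upregulated in sperm, Ruvbl2 and Mns1, and 5 of 10 downregulated in testes, Cfap300, Cfap298, Daw1, Pih1d2 and Lrrc56. Daw1, which takes outer arms into the axoneme, had 429, 457 and 250 counts in WT testes and 0 in all Xap5 cKO testes. Cytoplasmic dynein, the motor of intracellular transport, had the smallest medians of the 5 lists in both comparisons. None of its 10 genes was called in sperm, with 3 at an unadjusted p under 0.05 and Wdr60 alone past an adjusted p of 0.05 at a log2 fold change of 0.97. In testes 7 of the 10 were lower and Dync1i1 was higher (log2 fold change 0.83) at that threshold, and 1, the retrograde ciliary motor Dync2h1, was downregulated by over 2-fold (log2 fold change −1.63 ± 0.12, adjusted p = 1.78e-05). The medians of the 5 lists in sperm and testes were 0.96 and −1.38 for the dynein chains, 1.18 and −3.78 for the regulatory complex, 0.37 and −1.03 for the factors, 0.25 and −0.39 for cytoplasmic dynein, and 0.54 and −1.06 for the ciliary transcription regulators.

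Of those regulators, Foxj1, a master factor of motile cilia, had 374, 268 and 401 counts in WT sperm against 1742, 2652 and 939 in Xap5l KO sperm (log2 fold change 2.11 ± 0.41, adjusted p = 0.0177). Foxj1 was low in the testes, with 84, 70 and 98 counts in WT against 44, 16 and 43 in Xap5 cKO (log2 fold change −1.18 ± 0.44, adjusted p = 0.0474). Rfx2, an RFX factor of spermatogenesis, did not pass in sperm (adjusted p = 0.753) and had 4243, 4043 and 2613 counts in WT testes against 551, 502 and 696 in Xap5 cKO testes (log2 fold change −2.55 ± 0.21, adjusted p = 2.72e-05). Rfx4 was called in both, with log2 fold changes of 1.29 in sperm and −7.07 in testes, Rfx1 rose in sperm alone (1.21) and Ccno fell in the testes alone (−1.05). Xap5l RNA was itself lower in Xap5 cKO testes, with 532, 539 and 197 counts in WT against 6, 0 and 7 in Xap5 cKO (log2 fold change −6.48 ± 0.69, adjusted p = 8.09e-05).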

How the data were processed

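Poly(A) RNA was sequenced in read pairs. The authors mapped the reads with HISAT2 2.1.0 to GRCm38, and deposited raw counts per gene, 1 table per tissue, with whole numbers and no normalisation. The submitters' processing notes also name FastQC 0.11.2, Trimmomatic 0.36 and DESeq2 1.12.4, and the study names StringTie. The counting tool, its use of strand and its handling of reads with several matches are not given in the sources used here.

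Each table was fitted on its own with edgeR 4.0.16 in R 4.3.3: filterByExpr, TMM, the quasi-likelihood test with genotype as the only term, and Benjamini-Hochberg adjustment over all tested genes. Passing meant an adjusted p under 0.05, and a call also a fold change above 2. Standard errors belong to log2 fold changes. CPM were scaled with TMM, and levels per kb used the longest protein-coding transcript of GENCODE vM21. Groups with 3 or fewer counts in every library were treated as at the floor. With 3 libraries against 3, an exact permutation test cannot give a p below 0.1. The series' design text states biological replicates. The scripts were tested on simulated data with 200 genes changed 4-fold. The members, lists and tests were chosen with earlier results of these data known. All 36 members were accounted for. Those given with counts in every library were the called members, in each role the members of highest level per kb in WT and of largest fold change, and members at the floor, with others where a sentence compares them. The alternatives are given in the closing section.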

Additional observations from a re-analysis of the deposited data

How the results depend on the processing

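The testis counts and median kept their direction under every alternative run. Between 22 and 26 members were downregulated, 30 with no fold change threshold, and none was upregulated, the lowest count coming from a filter of at least 10 counts in every library, which left 31 members to test, and leaving out each library gave 25 to 26. The median log2 fold change lay between −3.44 and −2.94. Of the 25 downregulated members, where tested, Dnah10 alone lost its call, with a log2 fold change of −1.24 at an adjusted p under 0.01. The difference in the share of Dnah5, Dnah9 and Dnah11 between Xap5 cKO and WT testes was 18.6 percentage points, 16.4 from raw counts and 22.5 per kb of all merged exons, the last chosen after the data were examined, and 17.9 to 19.8 with each library left out.

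The sperm calls depended on single libraries. The count of 13 upregulated members ran from 0 to 18 with each library left out, was 0 when replicate 2 or 3 of WT or replicate 2 of Xap5l KO was omitted and 2 when replicate 1 of Xap5l KO was, and was 0 at an adjusted p under 0.01. The count of 11 members called in opposite directions ran from 0 to 13 with each library left out and was also 0 at an adjusted p under 0.01. DESeq2 and no filter each gave 18 upregulated members, RLE 16, library size alone 11, and leaving out both replicate 3 libraries, chosen after the data were examined, 16. Of the members not called, Dnah11, Dnal1 and Ccdc114 in sperm and Dnah9, Dnah3 and Dnaic2 in testes changed sign with single libraries left out, with log2 fold changes from −0.57 to 0.54, −0.78 to 1.21, −0.43 to 0.16, −0.24 to 0.29, −0.87 to 0.17 and −0.25 to 0.21. Dnah11 in sperm was also −0.00023 with a replicate block, −0.17 with the block and a length offset and −0.86 without both replicate 3 libraries, and the cause was not tested. No fold change that was called changed sign, and none of the sperm median values left the range of 0.74 to 1.04. Dnaaf3 was called under 9 of the alternatives.

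Replicate numbers were not treated as pairs in the main fits. The deviations of same-numbered libraries correlated across genes at 0.17, −0.02 and −0.12 in sperm and 0.01, −0.03 and −0.03 in testes. Differently numbered libraries correlated at −0.18 to 0.24 in sperm and −0.06 to 0.08 in testes. Deviations from a mean of 3 libraries are tied together, so these values cannot settle whether samples were paired. With a replicate block, 11 members were upregulated in sperm and 25 downregulated in testes, and 9 were called in opposite directions. With the block and a length offset together the sperm count was 8 and the count in opposite directions 7, and the cause was not tested. Sperm libraries varied more than testis libraries (common biological coefficient of variation 0.287 and 0.174), and Dnah5 and Dnah3 had 22 or fewer counts in every testis library, where the size of change that could be detected was not tested.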
